A study of Mus musculus with 14 samples.

Results

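The 7 transcription regulators Otx2, Pou3f1, Foxd3, Utf1, Sox3, Zic2 and Zic5 were described over all 14 arrays of a mouse reprogramming study. They were found by gene symbol among the 18193 genes that had a probe set of their own, where a probe set is the group of short probes that an Affymetrix array reads as 1 value. All 7 genes were found, with 13 probe sets in all. All 7 passed the filter on dim genes, which asked for a log2 signal of at least 5.42 on 2 or more arrays. Otx2 and Foxd3 met it only on the arrays where they were high, as given below. These genes belong to the epiblast, the pluripotent layer of the early embryo. Embryonic stem cells stand near its early, naive state, and the later, primed state comes with a rise of Otx2, Pou3f1 and Zic factors shortly before the germ layers form. Several of the 7 genes are used again in the early neural plate or in the neural crest, so their signal alone does not name a cell type.

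The study followed partially reprogrammed mouse cells on their way to full induced pluripotent stem cells (iPSCs). Partial iPSCs are clones in which reprogramming has stalled before the cell's own pluripotency genes are fully on. The 2i iPSCs were clones 2B1 and 5C5 after conversion in 2i, a pair of inhibitors of the kinases MEK and GSK3 (1 array for each clone). The ESCs were 2 male lines in conventional culture. They were a Nanog-GFP transgenic line of strain C57BL/6 and the line EBRTcH3 of strain 129sv, wild-type by its sample title. Embryonic fibroblasts (MEFs) from Nanog-GFP transgenic C57BL/6 embryos of mixed sex had 1 array, with an embryonic age of 12.5 days by the sample title and 13.5 days by the series text. The untreated partial iPSCs were the same clones 2B1 and 5C5, female and C57BL/6, kept in LIF and serum. A further 7 arrays held partial iPSCs of clone 2B1 into which Cnot1, Cnot2, Cnot3, Trim28, the combination of Cnot1, Cnot2 and Cnot3 (Cnot123 below), Nanog or an empty vector had been introduced. The series text says that the cDNAs of Cnot1, Cnot2, Cnot3, Trim28 and their combination came in by retrovirus, and that the empty vector and Nanog were stably integrated. Each clone, line or construct was 1 array, so a group of 2 is 2 clones or 2 lines, and a spread between them is not a spread between repeat cultures. All values are log2 signals from robust multi-array averaging (RMA), where 1 unit is a 2-fold difference, and levels of different probe sets were not compared with each other.

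The 14 arrays fell into 2 sets of 7 that looked normalized apart, although the labels do not say so. With the values of each array sorted, those of equal rank spanned 0.08 over the 7 arrays with untreated, 2i, ESC and MEF RNA and 0.10 over the 7 transduced arrays, but 0.32 over all 14 (medians over ranks). Tests were therefore run within a set, and a level set across both sets carries this offset. Known genes were checked against the labels. Nanog, a core pluripotency factor, read 12.38 and 12.57 in 2i iPSCs, 13.12 and 12.54 in ESCs, 3.72 in MEFs and 3.85 and 4.36 in untreated partial iPSCs. Of 13 fibroblast genes tested, 12 were at least 2-fold higher in MEFs than in both untreated clones. Fibroblast genes were not confined to MEFs: their summed linear signal was 18520 and 18488 in 2i iPSCs, 436 and 388 in ESCs, 93676 in MEFs and 15500 and 12131 in untreated partial iPSCs. Fgf5, a ligand that marks primed epiblast, was at 3.57 to 3.98 on all 7 of these arrays, under the filter on dim genes, and so was not tested.

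Promoter sequence is shown for the members that a RefSeq table covers, because their upstream regions differ in base composition and the reader can set them beside the signals below. Each window is the 250 bases before a start site of the RefSeq annotation of build GRCm38.p6, 5′ to 3′ on the gene's strand. Capitals mark matches, on either strand, to any of 8 short motifs: the octamer ATGCAAAT, the OTX core GGATTA, the CCAAT box, the GC box GGGCGG, the SOX core ACAAAG with its other form ACAATG, the E-box CACGTG and the TATA box TATAAA. Otx2 lies on the minus strand with 4 start sites, of which the outermost (chr14:48667645-48667894) and one further in (chr14:48665110-48665359) are shown. Foxd3 (chr4:99656049-99656298) and Utf1 (chr7:139943606-139943855) lie on the plus strand, and Zic5 (chr14:122465659-122465908) lies on the minus strand.
Otx2 outer start: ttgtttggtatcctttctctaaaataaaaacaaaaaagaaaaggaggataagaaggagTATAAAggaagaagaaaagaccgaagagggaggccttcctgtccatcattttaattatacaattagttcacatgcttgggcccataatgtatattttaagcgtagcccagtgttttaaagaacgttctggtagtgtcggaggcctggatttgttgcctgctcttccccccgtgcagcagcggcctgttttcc
Otx2 inner start: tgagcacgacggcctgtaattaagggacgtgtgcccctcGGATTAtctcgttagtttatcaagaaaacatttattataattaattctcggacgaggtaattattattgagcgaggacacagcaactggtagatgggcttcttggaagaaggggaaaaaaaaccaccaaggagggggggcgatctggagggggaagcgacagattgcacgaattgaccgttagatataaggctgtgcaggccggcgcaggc
Foxd3: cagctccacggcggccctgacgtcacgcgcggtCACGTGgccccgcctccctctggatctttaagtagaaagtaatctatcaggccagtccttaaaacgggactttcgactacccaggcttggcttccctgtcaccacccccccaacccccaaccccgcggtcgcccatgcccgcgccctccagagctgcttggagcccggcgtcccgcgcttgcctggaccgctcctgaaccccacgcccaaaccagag
Utf1: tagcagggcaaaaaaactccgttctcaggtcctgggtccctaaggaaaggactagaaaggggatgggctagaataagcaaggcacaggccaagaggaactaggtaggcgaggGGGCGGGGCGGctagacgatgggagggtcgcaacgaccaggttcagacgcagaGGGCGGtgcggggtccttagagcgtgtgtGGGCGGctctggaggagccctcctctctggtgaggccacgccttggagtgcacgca
Zic5: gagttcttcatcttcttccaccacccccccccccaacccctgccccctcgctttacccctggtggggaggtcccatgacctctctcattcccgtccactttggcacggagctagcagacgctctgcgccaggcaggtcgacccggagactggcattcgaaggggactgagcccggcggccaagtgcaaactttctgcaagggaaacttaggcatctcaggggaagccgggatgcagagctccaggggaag

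The outer Otx2 window was AT-rich, with 42% G or C and 6 CpG pairs, and held TATAAA at position -192, counted back from the start site. The inner Otx2 window held 48.4% G or C, 14 CpG pairs and GGATTA, the core that OTX proteins bind, at -211. Of the Otx2 windows not shown, one had 49.2% G or C, 8 CpG pairs and CCAAT on the opposite strand at -70. The other, the innermost, had 53.6% G or C, 9 CpG pairs and none of the 8 motifs. GGATTA was thus in only one of the Otx2 windows. The Foxd3 window had 65.6% G or C and 21 CpG pairs, with CACGTG at -217, a motif that reads the same on both strands. The Utf1 window had 61.6% G or C, 14 CpG pairs and 4 matches of GGGCGG, at -138, -133, -85 and -56, the first and second of which share 1 base. The Zic5 window had 62.4% G or C and 11 CpG pairs and held none of the 8 motifs. Over 32851 promoter windows of the same length the median was 52.4% G or C and 6 CpG pairs. GGATTA was found in 6.25% of them, CACGTG in 6.02%, TATAAA in 12.4% and GGGCGG in 32.7%. These matches describe the letters of each window and were not tested as binding sites. In the genome Zic2 and Zic5 are neighbours on chromosome 14 with 0 protein-coding genes between them, and Otx2 lies on the same chromosome. Pou3f1 and Foxd3 are on chromosome 4, Utf1 on chromosome 7 and Sox3 on the X chromosome.

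**Figure D1:**
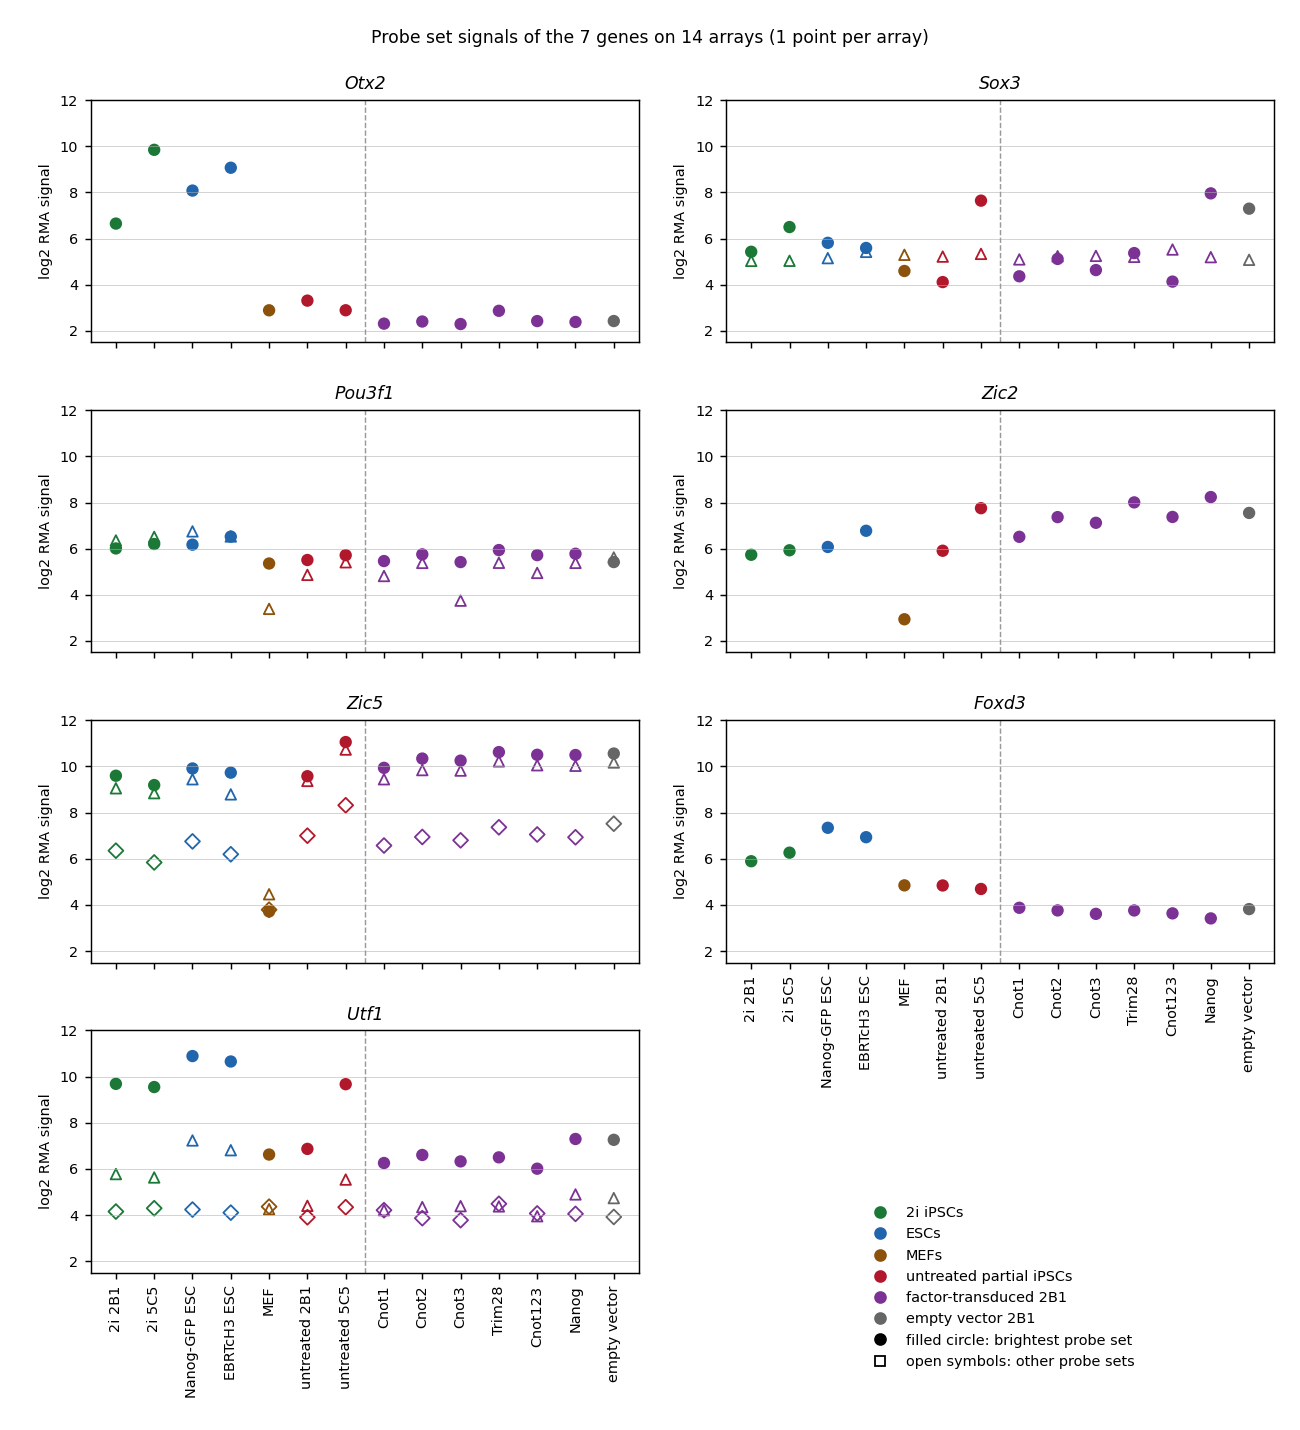
Log2 RMA signal (y axis) of every probe set of the 7 genes on each of the 14 arrays (x axis), 1 point per array. Filled circles are the brightest probe set of a gene, which was the one tested, and open symbols its other probe sets. The dashed line parts the 2 sets of arrays that looked normalized apart. Otx2 read 6.65 to 9.85 in 2i iPSCs and ESCs and 2.29 to 3.31 on the other 10 arrays.

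Otx2, the homeodomain factor that moves pluripotent cells from the naive towards the primed state, was near the bottom of the array in partial iPSCs and well above it in both 2i iPSCs and ESCs. Its only probe set read 6.65 (2B1) and 9.85 (5C5) in 2i iPSCs, 8.08 (Nanog-GFP) and 9.07 (EBRTcH3) in ESCs, 2.89 in MEFs, and 3.31 (2B1) and 2.89 (5C5) in untreated partial iPSCs. The lowest 2i or ESC value lay above every MEF and partial iPSC value, and the 25th percentile of each array lay between 3.55 and 3.89, above all the low Otx2 values. The change was tested with limma across the 12663 genes that passed the filter, and a gene was called at a Benjamini-Hochberg adjusted p below 0.05. In ESCs Otx2 averaged 8.57 ± 0.70, against 3.10 ± 0.30 in partial iPSCs (SD, n = 2 each), a log2 difference of 5.47 (SE 1.05, 95% interval 2.80 to 8.15, limma adjusted p = 0.0287). In 2i iPSCs it averaged 8.25 ± 2.26, against 3.10 ± 0.30 in partial iPSCs (SD, n = 2 each), a log2 difference of 5.15 (SE 1.05, 95% interval 2.47 to 7.82, limma adjusted p = 0.0565), which missed the threshold. The 2i clones lay 3.20 apart, 2B1 below 5C5. Without any 1 of the 4 arrays compared, the ESC difference missed the threshold (limma adjusted p 0.0548 to 0.0973). Without the 2i array of 2B1, the 2i difference was 6.74 and passed it (limma adjusted p = 0.0440).

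Pou3f1, a POU factor also known as Oct6 that is switched on in the primed epiblast and promotes neural fate, was a little higher in 2i iPSCs and ESCs. Its brightest probe set read 6.01 and 6.20 in 2i iPSCs, 6.17 and 6.52 in ESCs, 5.36 in MEFs, and 5.51 and 5.72 in untreated partial iPSCs (2B1 or Nanog-GFP first in each pair). Neither 2i nor ESC values overlapped those of partial iPSCs. The log2 difference was 0.49 in 2i iPSCs (SE 0.22, limma adjusted p = 0.251) and 0.74 in ESCs (SE 0.22, limma adjusted p = 0.083), and neither was called. The second probe set spread more widely, at 6.36 and 6.51 in 2i iPSCs, 6.75 and 6.53 in ESCs, 3.39 in MEFs, and 4.86 and 5.41 in untreated partial iPSCs. On its own its ESC difference was 1.50 (SE 0.25, limma adjusted p = 0.0216), so the 2 probe sets of Pou3f1 differed in the call but not in direction.

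Foxd3, a forkhead repressor needed in pluripotent cells and again in the neural crest, rose in both 2i iPSCs and ESCs. It read 5.89 and 6.26 in 2i iPSCs, 7.34 and 6.93 in ESCs, 4.85 in MEFs, and 4.84 and 4.69 in untreated partial iPSCs. MEFs and partial iPSCs lay together, 2i iPSCs above them and ESCs above 2i iPSCs, with no overlap between these steps. In ESCs Foxd3 averaged 7.14 ± 0.29, against 4.77 ± 0.11 in partial iPSCs (SD, n = 2 each), a log2 difference of 2.37 (SE 0.24, 95% interval 1.75 to 2.99, limma adjusted p = 0.0051), or 5.18-fold. It was called under every alternative run for this comparison, with limma adjusted p from 0.0040 to 0.0254. In 2i iPSCs Foxd3 averaged 6.08 ± 0.26, against 4.77 ± 0.11 in partial iPSCs (SD, n = 2 each), a log2 difference of 1.31 (SE 0.24, 95% interval 0.69 to 1.93, limma adjusted p = 0.0466), or 2.48-fold. That second call was lost with the clone as a block (limma adjusted p = 0.106), without any 1 of the 4 arrays compared (0.107 to 0.311), and under 2 rescalings of the arrays (0.0508 and 0.0541). The difference between 2i iPSCs and ESCs was -1.06 (SE 0.24, 95% interval -1.68 to -0.44, limma adjusted p = 0.105).

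Utf1, a chromatin-bound factor of pluripotent cells and the early epiblast, separated the 2 untreated clones. Its brightest probe set read 9.68 and 9.55 in 2i iPSCs, 10.89 and 10.65 in ESCs, 6.62 in MEFs, and 6.87 in untreated 2B1 but 9.67 in untreated 5C5. Untreated 5C5 thus lay with the 2i iPSCs, and untreated 2B1 with the MEFs. The second probe set also placed untreated 5C5 beside the 2i iPSCs, at 5.77 and 5.63 in 2i iPSCs, 7.23 and 6.81 in ESCs, 4.25 in MEFs, 4.40 in untreated 2B1 and 5.54 in untreated 5C5. Its remaining probe set stayed under the filter on dim genes, between 3.78 and 4.49 on the 14 arrays. The log2 difference of the brightest probe set was 2.50 in ESCs (SE 0.89, limma adjusted p = 0.122) and 1.35 in 2i iPSCs (SE 0.89, limma adjusted p = 0.428) and was not called. Both values turned on which untreated clone was kept. Without untreated 5C5 the difference was 3.91 in ESCs (limma adjusted p = 0.00665) and 2.75 in 2i iPSCs (limma adjusted p = 0.0263). Without untreated 2B1 it was 1.10 in ESCs (limma adjusted p = 0.0730) and -0.054 in 2i iPSCs (limma adjusted p = 0.929). Tested on its own, the second probe set was called in ESCs at 2.05 (SE 0.41, limma adjusted p = 0.0344).

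Sox3, an X-linked relative of Sox2 that marks the epiblast and neural progenitors, also differed most between the untreated clones. Its brightest probe set read 5.43 and 6.50 in 2i iPSCs, 5.81 and 5.59 in ESCs, 4.59 in MEFs, and 4.11 in untreated 2B1 but 7.64 in untreated 5C5. Untreated partial iPSCs thus held both the lowest and the highest of these 7 values, with the 2i iPSCs and ESCs between them. The mean log2 difference was 0.08 in 2i iPSCs (SE 1.15, limma adjusted p = 0.975) and -0.17 in ESCs (limma adjusted p = 0.932). Its sign turned with the clone left out: the 2i difference was -1.68 without untreated 2B1, and the ESC difference was 1.59 without untreated 5C5. The other Sox3 probe set did not follow: it lay between 5.03 and 5.52 on all 14 arrays, a range of 0.49. The results on Sox3 therefore rest on 1 of its 2 probe sets.

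Zic2 and Zic5, zinc finger factors of the primed epiblast and the neural plate, lay well above their MEF values in every pluripotent or partially reprogrammed sample. Zic2 read 5.73 and 5.93 in 2i iPSCs, 6.07 and 6.77 in ESCs, 2.94 in MEFs, and 5.91 in untreated 2B1 and 7.75 in untreated 5C5. The brightest Zic5 probe set read 9.60 and 9.19 in 2i iPSCs, 9.91 and 9.73 in ESCs, 3.72 in MEFs, and 9.58 in untreated 2B1 and 11.06 in untreated 5C5. For both genes untreated 5C5 was the highest and MEFs the lowest of the 7 arrays. In 2i iPSCs Zic2 averaged 5.83 ± 0.14, against 6.83 ± 1.30 in partial iPSCs (SD, n = 2 each), a log2 difference of -0.999 (SE 0.64, limma adjusted p = 0.412). Zic5 averaged 9.40 ± 0.29 in 2i iPSCs, against 10.32 ± 1.05 in partial iPSCs (SD, n = 2 each), a difference of -0.92 (SE 0.51, limma adjusted p = 0.342). Neither passed the test, nor did the ESC differences of -0.41 for Zic2 (limma adjusted p = 0.691) and -0.50 for Zic5 (limma adjusted p = 0.537). Without untreated 5C5 the ESC differences were 0.51 for Zic2 and 0.25 for Zic5, of the opposite sign and also not called. The other 2 Zic5 probe sets also had their highest value in untreated 5C5 and their lowest in MEFs. One read 8.79 to 9.45 in 2i iPSCs and ESCs, 9.37 in untreated 2B1 and 10.73 in untreated 5C5. The other read 5.84 to 6.75 in 2i iPSCs and ESCs and 8.32 in untreated 5C5. On that last probe set untreated 2B1 also lay above every 2i and ESC value, unlike on the brightest. Its ESC difference therefore kept its sign without untreated 5C5.

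**Figure D2:**
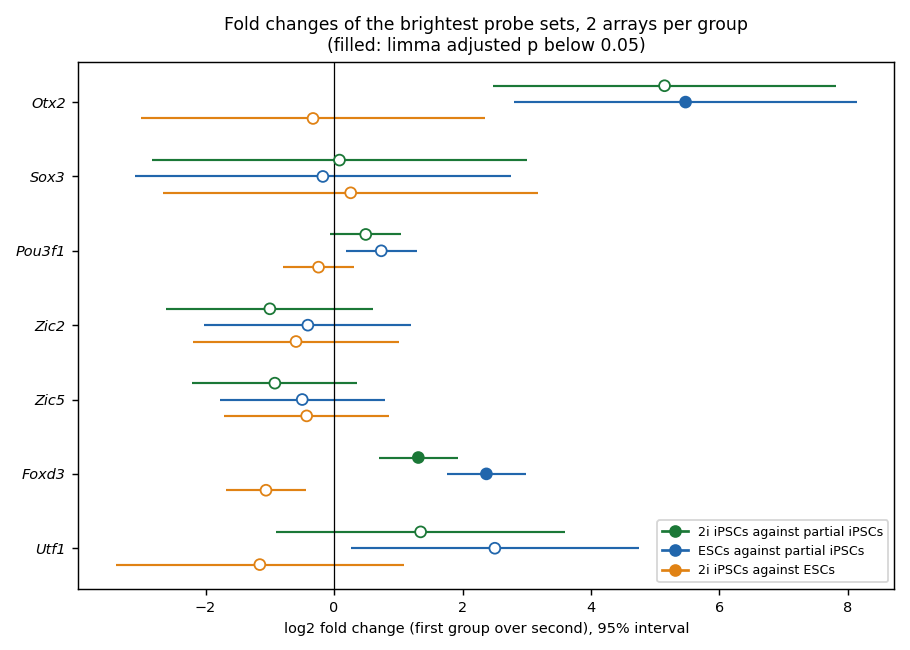
Log2 difference (limma estimate, with its 95% interval as the bar) of the brightest probe set of each gene for 2i iPSCs against partial iPSCs, ESCs against partial iPSCs and 2i iPSCs against ESCs (2 arrays a group, filled where the limma adjusted p was below 0.05, intervals not adjusted). The interval of Foxd3 is clear of 0 in each comparison, at 1.31, 2.37 and -1.06, the last not called. Those of Otx2, at 5.15 and 5.47, are the wide ones furthest to the positive side. In ESCs against partial iPSCs those of Pou3f1 and Utf1 are also clear of 0, though neither was called.

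In 2i iPSCs against partial iPSCs 1 of the 7 members was called, Foxd3, where 6% of the 12663 genes tested were called. It was higher, as were 3.55% of genes, and 0 members were called lower, as were 2.46%. In ESCs against partial iPSCs 2 of the 7 were called, Otx2 and Foxd3, both higher. Of all genes 15.9% were called, made up of 6.09% higher and 9.82% lower. Otx2 and Foxd3 passed the filter on dim genes only through the 2i and ESC arrays, where they were high. With no such filter the limma adjusted p in ESCs was 0.0392 for Otx2 and 0.00588 for Foxd3, and 0.0468 for Foxd3 in 2i iPSCs. Higher values with no overlap between groups were seen for 3 members in 2i iPSCs (Otx2, Pou3f1 and Foxd3), where 34.2% of all genes gave that pattern, and for 4 in ESCs (those and Utf1), where 29.8% did. No member was lower without overlap on its brightest probe set, a pattern of 29.5% of genes in 2i iPSCs and 29.1% in ESCs. The member shares lie close enough to these backgrounds that the counts alone are no result about the 7 genes. Between 2i iPSCs and ESCs limma called 0 of the 7 members and 3.85% of all genes (3.69% higher and 0.158% lower in 2i iPSCs). At an unadjusted p below 0.05 it called 1 member, Foxd3, and 15.9% of all genes. The differences of the other 6 ran from -1.16 (Utf1, SE 0.89) to 0.26 (Sox3, SE 1.15), with limma adjusted p from 0.603 to 0.940, and wide intervals that leave differences of 2-fold or more possible for Otx2, Sox3, Zic2, Zic5 and Utf1. The 2i values of Zic2, Zic5, Foxd3 and Utf1 lay below both ESC values without overlap, a pattern 23.9% of genes gave, and no member lay above, as 26.4% of genes did. The 2i and ESC comparisons share the same partial iPSC arrays, so their differences are not independent of each other.

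Relative to MEFs the members split. With 1 MEF array there is no test, and a gene was counted where MEFs lay at least 2-fold from both untreated clones. Zic2 and Zic5 were lower in MEFs by that rule, as were 11.3% of all genes, and no member was higher, as 9.9% were. The MEF value of Otx2 (2.89) lay level with untreated 5C5, that of Foxd3 (4.85) level with untreated 2B1, and that of Sox3 (4.59) lay between the clones. In such bulk RNA, fewer cells of a type and less RNA per cell cannot be told apart.

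For several members the difference between the 2i and the untreated array was not alike in the 2 clones. For Otx2, 2i minus untreated was 3.34 in 2B1 and 6.95 in 5C5, and for Foxd3 it was 1.05 and 1.57. For Pou3f1 it was 0.50 in 2B1 and 0.49 in 5C5. These 3 genes were higher in the 2i array of both clones. Utf1 was 2.82 higher in 2B1 and 0.12 lower in 5C5 (-0.12), and Sox3 was 1.31 higher in 2B1 and 1.14 lower in 5C5 (-1.14). Zic2 differed by -0.18 in 2B1 and -1.82 in 5C5, and Zic5 by 0.02 in 2B1 and -1.86 in 5C5. All these values are those of the brightest probe sets, and other probe sets of Sox3, Zic5 and Utf1 did not all give the same signs. With 1 array for each clone and condition these differences between clones were not tested.

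**Figure D3:**
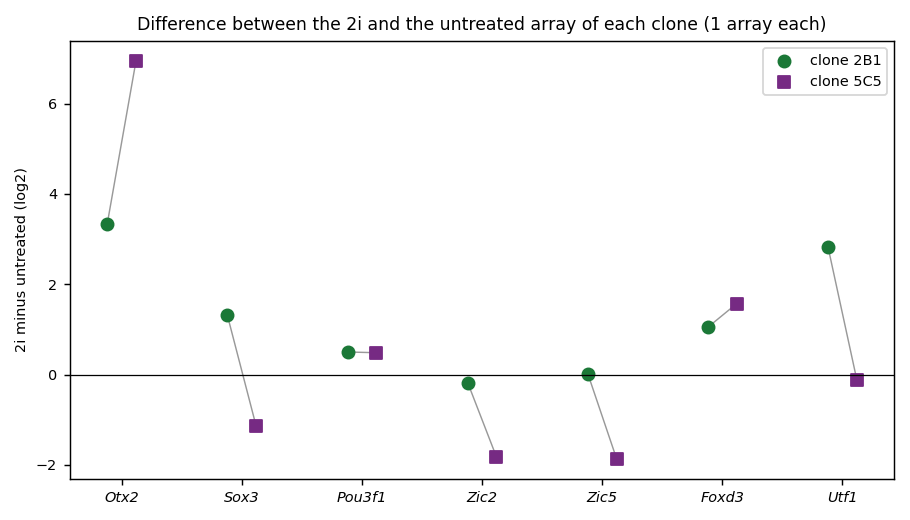
Log2 signal of the brightest probe set on the 2i array minus that on the untreated array of the same clone (y axis) for each gene (x axis). Clone 2B1 is shown as circles and clone 5C5 as squares joined by a line, 1 array for each clone and condition. The clones lie on opposite sides of 0 for Sox3, Zic5 and Utf1, and furthest above 0 for Otx2 at 3.34 and 6.95.

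For Sox3, Utf1, Zic2 and Zic5 the clones lay further apart in the untreated arrays, and for Otx2 after 2i. Untreated 2B1 minus untreated 5C5 was -3.53 for Sox3, -2.80 for Utf1, -1.84 for Zic2 and -1.48 for Zic5, so 4 of the 7 members were at least 2-fold lower in 2B1, where 10.6% of all genes differed that much in either direction. After 2i the same difference was at least 2-fold for Otx2 (-3.20) and Sox3 (-1.07), 2 of 7 members against 1.73% of genes. Between the 2 ESC lines it was so for 0 members against 15.8% of genes. Of the 10 tested neural markers, Sox1 and Pax6 differed between the untreated clones in the same direction. The others are given here only through the sum and the median that follow. Over 10 tested neural genes the summed linear signal was 742 in untreated 2B1 and 2253 in untreated 5C5, and 1130 and 1152 in the 2i arrays. The median log2 signal of the 10 was 5.68 in untreated 2B1 and 5.85 in untreated 5C5, and 6.62 and 6.16 in the 2i arrays, so the list as a whole did not follow the sum. Sox1, the neural plate relative of Sox3, read 7.60 in untreated 2B1 and 9.88 in untreated 5C5, and Pax6, a neural progenitor factor, read 6.88 and 9.19. Foxd1, a forkhead relative of Foxd3, ran the other way, at 8.94 in untreated 2B1 and 4.11 in untreated 5C5. The part of neural gene signal in the member differences was not tested.

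Among 23 other genes of the primed or formative epiblast, 21 had a probe set and 16 passed the filter. In 2i iPSCs 3 of the 16 rose, 0 fell and 13 did not pass the test, with a median log2 difference of -0.01 against 0.03 over all genes. Krt18, an epithelial keratin, rose by 2.68 (SE 0.28, limma adjusted p = 0.0122). Sfrp2, a secreted modulator of Wnt signals, rose by 2.43 (SE 0.26, limma adjusted p = 0.0130). Dnmt3b, the de novo DNA methyltransferase of the epiblast, rose by 2.16 (SE 0.36, limma adjusted p = 0.0360), a call lost with the clone as a block (limma adjusted p = 0.0522). Krt18 and Sfrp2 were also high in MEFs, at 8.57 and 8.08. Dnmt3b was not, at 5.49 in MEFs against 7.30 and 8.25 in the untreated clones.

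In ESCs 4 of the 16 rose and 0 fell, with a median log2 difference of 0.70 against 0.00 over all genes. They were Krt18 at 3.58 (SE 0.28, limma adjusted p = 0.00274), Dnmt3b at 3.29 (SE 0.36, limma adjusted p = 0.00613), Sfrp2 at 3.02 (SE 0.26, limma adjusted p = 0.00331) and Nodal, the ligand that keeps the epiblast pluripotent, at 3.07 (SE 0.56, limma adjusted p = 0.0244). Nodal in 2i iPSCs had a difference of 1.74 (SE 0.56, limma adjusted p = 0.142). Nodal read 8.80 and 9.72 in 2i iPSCs, 10.82 and 10.37 in ESCs, 5.07 in MEFs, and 6.83 and 8.22 in untreated partial iPSCs, so its groups did not overlap. Between 2i iPSCs and ESCs limma called 0 of the 16, with a median difference of -0.50 against 0.00 over all genes.

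Of the members' relatives in the Sox, Pou, Fox and Zic families, 14 had a probe set and 6 passed the filter. Sox2, the core pluripotency factor of the same subfamily as Sox3, read 12.71 and 12.73 in 2i iPSCs, 12.66 and 12.91 in ESCs, 5.08 in MEFs, and 4.67 and 3.85 in untreated partial iPSCs. It rose by 8.46 in 2i iPSCs (SE 0.31, limma adjusted p = 0.000891) and by 8.52 in ESCs (SE 0.31, limma adjusted p = 0.000512), and Sox3, as given above, was not called in either comparison. Sox21 passed the test in ESCs, narrowly, at 0.88 (SE 0.21, limma adjusted p = 0.04998). Sox1 had a difference of -2.17 in 2i iPSCs (limma adjusted p = 0.215) and Foxd1 of -2.24 (limma adjusted p = 0.459). Zic1, the Zic gene of mesenchyme and neural tube, did not pass the filter, since it read 8.51 in MEFs and 2.79 to 3.58 on the other 6 arrays of that set. MEFs thus had the highest Zic1 and the lowest Zic2 and Zic5 signals of the set.

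Of 13 pluripotency factors known to act with or against the members, 10 rose in 2i iPSCs and 1 fell, with a median of 3.995, and 10 rose and 2 fell in ESCs, with a median of 4.85, against 0.03 and 0.00 over all genes. With the clone as a block, the 2i counts were 9 higher and 0 lower, without Klf5 (limma adjusted p = 0.0562) and Pou5f1 (limma adjusted p = 0.0655). Pou5f1, the partner that Otx2 guides to primed enhancers, was the 1 that fell in 2i iPSCs, with a difference of -1.36. It read 11.95 and 11.72 in 2i iPSCs, against 13.25 and 13.16 in untreated partial iPSCs. Whether this Pou5f1 signal came from the cell's own gene was not tested. The 2 that fell in ESCs were Pou5f1 (-0.86) and Klf4 (-1.41), a factor of the naive state. Klf4 averaged 11.03 in ESCs and 12.44 in untreated partial iPSCs. Whether its signal came from the cell's own gene was not tested either. Of the markers of other lineages, 1 of 10 neural genes rose in 2i iPSCs, Tubb3, and 2 of 13 fibroblast genes rose there, Col1a2 and Postn. Col1a2, a collagen chain, read 12.28 and 12.50 in 2i iPSCs, against 11.15 and 10.62 in untreated partial iPSCs, and its call was lost with the clone as a block (limma adjusted p = 0.0909). In ESCs 11 of the 13 fibroblast genes fell relative to partial iPSCs. Of 6 neural crest genes 1 fell in 2i iPSCs and 3 fell in ESCs, and 1 of 6 genes of mesoderm and endoderm, Afp, rose in 2i iPSCs, a call also lost with the clone as a block (limma adjusted p = 0.104). Otx2 and Foxd3, the members called, read 2.89 and 4.85 in MEFs. Whether the lineage signals above had a part in the member values was not tested.

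Likeness to other genes was described by Pearson's r over the 7 untreated, 2i, ESC and MEF arrays, among 4084 genes with a range of at least 2. These arrays share cell lines and, it appears, 1 normalization, so r describes the 7 points only. Otx2 was most like Acoxl (0.996), Meioc (0.995) and She (0.991). Zic2 was most like Zbtb26 (0.995), Smagp (0.985) and Vangl2 (0.983), and Zic5 most like Syt9 (0.997), Malt1 (0.992) and B4galnt4 (0.991). Foxd3 was most like Bmerb1 (0.994), E330020D12Rik (0.982) and Zswim1 (0.981), and Utf1 most like Gprasp2 (0.992), Platr10 (0.981) and Cacna1a (0.973). Pou3f1 had a range of 1.17, under the minimum of 2, and was not compared.

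Sox3 was most like Foxa1 (0.986), Plcb4 (0.967) and Xist (0.963). Xist, the RNA that coats the inactive X chromosome in female cells, read 7.93 and 9.14 in 2i iPSCs, 8.42 and 9.03 in ESCs, 5.20 in MEFs, and 5.44 in untreated 2B1 but 13.49 in untreated 5C5. Both genes were thus low in untreated 2B1 and highest in untreated 5C5. Xist did not follow the labelled sex, since the male ESC lines read above the mixed-sex MEFs and the female untreated 2B1. Within the 7 genes, the neighbours Zic2 and Zic5 had r = 0.955 over these 7 arrays and 0.863 over the 7 transduced arrays. Sox3 and Utf1 had r = 0.634 over the first 7 arrays and 0.980 over the transduced ones. Otx2 and Foxd3 had 0.892 and 0.159, and both were low on every transduced array.

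On the transduced 2B1 arrays the introduced genes did not stand out on the arrays labelled with them. Over 11 probe sets of Cnot2, Cnot3, Trim28 and Nanog, 19 differences between an array labelled with the gene and the empty vector array ran from -0.99 to 0.30. Nanog read 3.12 on the array labelled Nanog and 4.11 on the empty vector array. Whether these probes lie in the introduced cDNAs is not known, so the arrays are named by their labels only. Each construct had 1 array, so no difference here was tested.

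Otx2 and Foxd3 stayed low on all 7 transduced arrays. Otx2 read 2.31 (array labelled Cnot1), 2.40 (Cnot2), 2.29 (Cnot3), 2.87 (Trim28), 2.42 (Cnot123), 2.38 (Nanog) and 2.42 (empty vector). Foxd3 read 3.88, 3.76, 3.61, 3.76, 3.63, 3.41 and 3.82 on the same arrays in the same order. No factor array was as much as 0.50 from the empty vector array for either gene. Pou3f1 lay between 5.42 and 5.94 and Zic5 between 9.94 and 10.62, each within 2-fold of the empty vector array everywhere on the brightest probe set. The second Pou3f1 probe set read 3.75 on the array labelled Cnot3, against 5.62 on the empty vector array.

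Sox3, in contrast, read 4.36, 5.12, 4.63, 5.37 and 4.13 on the arrays labelled Cnot1, Cnot2, Cnot3, Trim28 and Cnot123, 7.96 on the array labelled Nanog and 7.29 on the empty vector array. The first 5 lay together, and the Nanog and empty vector arrays lay apart from them at a higher level. Against the empty vector Sox3 differed by -2.93 (Cnot1), -2.18 (Cnot2), -2.66 (Cnot3), -1.93 (Trim28), -3.16 (Cnot123) and 0.66 (Nanog). The second Sox3 probe set again lay flat, at 5.08 to 5.52 on these 7 arrays. Utf1 read 6.25, 6.60, 6.32, 6.50 and 6.01 on the arrays labelled Cnot1, Cnot2, Cnot3, Trim28 and Cnot123, 7.30 on the array labelled Nanog and 7.26 on the empty vector array, the same split with a smaller step. Zic2 read 6.51 on the array labelled Cnot1, against 7.55 on the empty vector array, and 7.12 to 8.24 on the other factor arrays.

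**Figure D4:**
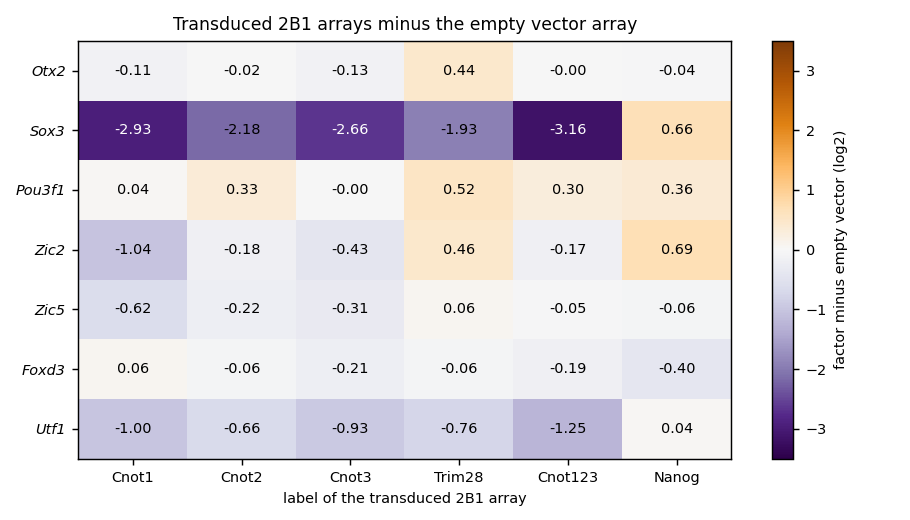
Log2 signal of each array labelled with a factor minus the empty vector array of the same clone, for each of the 7 genes (colour scale and printed values, 1 array per construct). Sox3 runs from -3.16 to -1.93 on the 5 arrays labelled Cnot1, Cnot2, Cnot3, Trim28 and Cnot123 and is 0.66 on the array labelled Nanog.

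Counted at 2-fold, members lower than the empty vector were 3 of 7 on the array labelled Cnot1 (Sox3, Zic2 and Utf1), where 5.87% of genes were that much lower. Sox3 was the only such member on the arrays labelled Cnot2, Cnot3 and Trim28, where 3.89%, 5.19% and 1.52% of genes were. On the array labelled Cnot123 there were 2 (Sox3 and Utf1), where 8.43% of genes were, and on the array labelled Nanog 0, where 0.869% were. No member was 2-fold higher on any of the 6 arrays, where 4.15% (Cnot1), 2.87% (Cnot2), 2.49% (Cnot3), 0.963% (Trim28), 3.72% (Cnot123) and 0.561% (Nanog) of genes were. These 8 differences all use the same empty vector array. With the median of the 7 transduced arrays in its place, 1 difference of at least 2-fold was left among the factor arrays, Sox3 on the array labelled Nanog at 2.84, and the empty vector array itself lay 2.18 above that median.

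The split of Sox3 followed the way the constructs were put in, as the series text gives it, and this was noticed after the values were seen. The lower of the Nanog and empty vector values lay 1.93 above the highest of the other 5 for Sox3 and 0.66 above it for Utf1. Higher values without overlap on those 2 arrays were found for 19.2% of all genes, and a higher step of at least 2-fold for 0.387%. The factor and the way of delivery cannot be told apart for the Cnot and Trim28 arrays. Xist read 8.88, 11.19, 10.55, 12.50 and 4.79 on the arrays labelled Cnot1, Cnot2, Cnot3, Trim28 and Cnot123, 13.01 on the array labelled Nanog and 13.08 on the empty vector array. Over these 7 arrays r between Sox3 and Xist was 0.75. The summed signal of 10 neural genes was 888, 1214, 979, 1599 and 1039 on the arrays labelled Cnot1, Cnot2, Cnot3, Trim28 and Cnot123, 1540 on the array labelled Nanog and 1733 on the empty vector array. The median log2 signal of the 10 was 5.56, 5.82, 6.07, 6.93 and 6.42 on the first 5 arrays, 6.33 on the array labelled Nanog and 6.76 on the empty vector array. The part of any of these in the Sox3 values was not tested.

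Across the 2 sets of arrays, and with the offset between them, the empty vector array of 2B1 lay 3.18 above the untreated 2B1 array for Sox3, 1.64 above it for Zic2 and 0.98 above it for Zic5. For Foxd3 and Otx2 the same difference was -1.02 and -0.89, and for Utf1 and Pou3f1 it was 0.39 and -0.09. The Sox3 and Zic2 values of empty vector 2B1, 7.29 and 7.55, thus lay nearer to untreated 5C5, at 7.64 and 7.75, than to untreated 2B1, at 4.11 and 5.91. Utf1 went the other way: its value of 7.26 lay nearer to untreated 2B1, at 6.87, than to untreated 5C5, at 9.67. Of the 16 primed and formative epiblast genes, 6, 4 and 3 were at least 2-fold lower than the empty vector on Cnot1, Cnot2 and Cnot3. Of all genes 5.87%, 3.89% and 5.19% were. On the arrays labelled Trim28, Cnot123 and Nanog 1, 6 and 0 of the 16 were, and 1.52%, 8.43% and 0.869% of all genes. At least 2-fold higher were 1 of the 16 on Cnot123 and 2 on Nanog, where 3.72% and 0.561% of genes were, and none elsewhere. All these counts use the same empty vector array.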

How the data were processed

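RNA of 14 mouse samples had been hybridised to Affymetrix expression arrays, 1 array a sample. The deposited values are log2 signals. RMA and the R package affy are named in the submitters' processing notes, without versions or order. No scanner files were used here. With so few arrays, it is their number that bounds the precision.

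Of 45101 probe sets, 64 controls were left out, 34945 had 1 gene symbol in the platform annotation, 932 had several and 9160 had none. Of those with 1 symbol, 34741 matched the RefSeq table of GRCm38.p6. Each gene was represented by its brightest probe set (mean of 14 arrays), which gave 18193 genes. A signal of 5.42 or more on at least 2 arrays, the median over all deposited values, was asked of a gene before testing: 12663 met it and 5530 did not. limma 3.58.1 (R 4.3.3) was fitted to the 6 arrays of untreated, 2i and ESC groups on 3 residual degrees of freedom, with eBayes and Benjamini-Hochberg adjustment at 0.05 over all genes tested. Scripts were tested on simulated data. The 2i and untreated arrays were paired by clone, which is the same cell line, and their deviations from the group means had a correlation of 0.11. The labels do not say that samples of a group are separate cultures, so p-values measure the spread between these clones or lines.

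All probe sets of the members are named. From the lists, genes past the test and the 4 with the largest change could be named with values, and for likeness the 3 genes with the highest r. The members and lists were chosen with earlier results of these data known. Alternatives were another normalization, other filters, other choices of probe set, fewer arrays in the fit and the clone as a block.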

Additional observations from a re-analysis of the deposited data

Results flagged for a closer look

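On the brightest probe set of 3 members the 2i array lay above the untreated array in clone 2B1 and below it in clone 5C5. With 1 array for each clone and condition, the difference between clones was not tested. The 2B1 difference minus the 5C5 difference was 2.46 for Sox3, 1.89 for Zic5 and 2.94 for Utf1. For Zic5 the 2B1 difference was only 0.02. The second Sox3 probe set lay flat, with a range of 0.39 over the 7 arrays of that set.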

How the results depend on the processing

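With the clone as a block (replicate block), 297 genes were called in 2i iPSCs against partial iPSCs, in place of 760, and 0 members in place of 1. Quantile normalization, centring on the array median and testing each probe set on its own also left 0 members there, at limma adjusted p values of 0.0541, 0.0508 and 0.0507 for Foxd3. At an unadjusted p below 0.05 limma called 2 members, Otx2 and Foxd3, under the block and both rescalings. With only the 4 arrays compared in the fit, limma called 1396 genes in 2i iPSCs and 780 in ESCs against partial iPSCs. Testing each probe set on its own called 4 members in ESCs, in place of 2. Leaving out 1 array at a time gave 43 to 1396 genes and 0 to 1 members in 2i iPSCs against partial iPSCs, 780 to 2328 genes and 1 to 2 members in ESCs against partial iPSCs, and 0 to 786 genes and 0 members in 2i iPSCs against ESCs. In the first comparison 43, 50, 424 and 370 genes were called without 2i 5C5, 2i 2B1, untreated 2B1 and untreated 5C5, and in the second 1163 and 1343 without untreated 2B1 and untreated 5C5. Leaving out either array of the group outside a comparison gave the counts of the 4-array fit for the first 2 comparisons, and 786 came without the Nanog-GFP ESC array. In the last comparison the counts of 0 and 1 came without 2i 5C5 and 2i 2B1, at 1062 and 1119 genes with an unadjusted p below 0.05. In each the lone array was assumed to vary like the other groups.

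Centring on the median of the genes tested, chosen after seeing the data, put the median difference of all genes in ESCs against partial iPSCs at 0.17 in place of 0.00, and in 2i iPSCs against ESCs at -0.14, and it split the ESC calls into 1063 higher and 1015 lower in place of 771 and 1244. Otx2 and Foxd3 were higher in 2i iPSCs and ESCs under each of these scalings. For the transduced arrays, 8 member differences of at least 2-fold became 5 with the mean of a gene's probe sets and 1 with the median array as control. For single members 272 values kept their direction and their side of the threshold, 12 lost the call, 4 gained it and 10 changed sign, none of these 10 called before or after. With the mean of its probe sets Sox3 was at -0.079 in 2i iPSCs against partial iPSCs. The other 9 came from leaving out 1 array. That gave -1.68 to 1.85 for Sox3 and -0.054 to 2.75 for Utf1 in 2i iPSCs against partial iPSCs, with the lowest without untreated 2B1 and the highest without untreated 5C5. In ESCs against partial iPSCs it gave -1.94 to 1.59 for Sox3, -1.33 to 0.51 for Zic2 and -1.24 to 0.25 for Zic5, between the same arrays. In 2i iPSCs against ESCs it gave -1.93 (without 2i 5C5) to 1.27 (without 2i 2B1) for Otx2 and -0.28 to 0.79 for Sox3, likewise. The cause of these changes was not tested.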
